A study of Homo sapiens with 6 samples.

Results

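The AP-1 factor genes are 10 genes for basic leucine zipper (bZIP) proteins: JUN, JUNB, JUND, FOS, FOSB, FOSL1, FOSL2, ATF3, BATF3 and MAFF. To ask whether ZNF469 was found at these genes themselves, all regions that overlapped a gene body or the 50 kb on either side of it were collected (hg38, GENCODE version 44). The 10 windows held 38 of the 19108 regions of full-length ZNF469 and 0 of the 54 regions of dZF-ZNF469. The members are a list of names, and the rule that picked their regions used position alone. The members and the related gene lists described later were chosen with earlier results of these data known. Their counts beside shares over all genes are therefore descriptions and not a test.

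ZNF469 was mapped by CUT&RUN, in which an antibody, here against ZNF469, brings a nuclease to its target so that nearby DNA fragments are released and sequenced. The cells were LX2, an immortalized human hepatic stellate cell line, and both groups carried a doxycycline-inducible piggyBac transgene and received doxycycline (1 ug/mL, 24 h). One group expressed full-length human ZNF469 and the other dZF, from which zinc fingers had been deleted, with 3 libraries per group and a clone name of its own for each group. The construct and the line cannot be told apart, a group without doxycycline was not analysed here, and each group was deposited as 1 pooled peak list, so that no replicate error and no test could be had. RNA was not measured in these libraries, and the lists say nothing on whether a gene was expressed.

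AP-1 is a dimer of bZIP proteins that binds DNA through a basic region and pairs through a leucine zipper. JUN proteins pair with one another or with FOS proteins and bind the sequence TGAGTCA, also read as TGACTCA on the other strand, here called the AP-1 site. Many AP-1 genes are immediate early genes that growth factors, stress and cytokines switch on quickly, and in stellate cells AP-1 is known for its part in activation of the cells.

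All 10 AP-1 factor genes had at least 1 full-length region in their windows, where 65.1% of all 20007 protein-coding genes did, and 62.3% of the 13795 protein-coding genes no longer than ATF3, the longest member (55.4 kb). The count of members fell to 6 with gene bodies alone, to 6 in the upper 25% of records by fold and to 4 in the upper 25% by pileup. These settings keep fewer records or less sequence for every gene. The shares over all genes are not given for them, so the lower counts cannot be called high or low. No member had a dZF region, as was the case for all but 0.21% of protein-coding genes. A region lay within 3 kb of an annotated start of 7 of the 10 members (JUN, JUND, FOSB, FOSL1, FOSL2, ATF3 and MAFF), compared with 27.5% of all protein-coding genes. That count was 5 within 1 kb of a start and 6 when the gene's outermost start alone was used, and the 27.5% does not apply to these settings. JUNB, FOS and BATF3 had no region at the promoter. The strongest promoter region was that of JUN, where 74 fragments overlapped the summit (exact Poisson limits at 95%, 58.1 to 92.9).

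An AP-1 site lay within 50 bp of the summit in 5 of the 38 regions (13.2%, exact binomial 95% interval 4.41% to 28.1%). The share over the whole full-length list was 19.3%, and it was 1.57% in 38209 windows of the same length placed 1 kb to either side of all summits. These 5 regions belonged to JUN, JUND, FOSL2, ATF3 and MAFF. They were singled out after their values were seen. Only that of FOSL2 was at the member's own promoter. For those of JUN, JUND and MAFF the nearest protein-coding start was that of another gene. The sequences are given because they show where the AP-1 site stood relative to the summit. Those of JUN, JUND, ATF3 and MAFF are the summit with 50 bases on either side. That of FOSL2 is cut to 30 bases around the site, which is in a 5' UTR, and leaves out the summit. All are the plus strand of hg38, 5' to 3', with the AP-1 site in capitals.

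JUN, downstream (chr1:58727527-58727627): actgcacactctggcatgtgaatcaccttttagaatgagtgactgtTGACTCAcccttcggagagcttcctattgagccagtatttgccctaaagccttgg
JUND, downstream (chr19:18274947-18275047): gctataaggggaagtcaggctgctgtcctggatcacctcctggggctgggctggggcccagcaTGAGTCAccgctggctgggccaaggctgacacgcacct
FOSL2, promoter (chr2:28392851-28392880): tgccattgtagTGACTCAtctcgggcagag
ATF3, intron (chr1:212596452-212596552): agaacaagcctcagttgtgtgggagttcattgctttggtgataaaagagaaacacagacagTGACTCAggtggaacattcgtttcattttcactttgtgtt
MAFF, downstream (chr22:38241014-38241114): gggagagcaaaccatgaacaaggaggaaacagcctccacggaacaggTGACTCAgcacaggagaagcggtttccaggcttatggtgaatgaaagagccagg

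The site was 0 bp from the summit in the MAFF window and 1 bp from it in the JUN window. The distance was 14 bp for ATF3, 16 bp for JUND and 44 bp for FOSL2. TGACTCA was the plus-strand form in 4 of these and TGAGTCA in the JUND region.

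**Figure D1:**
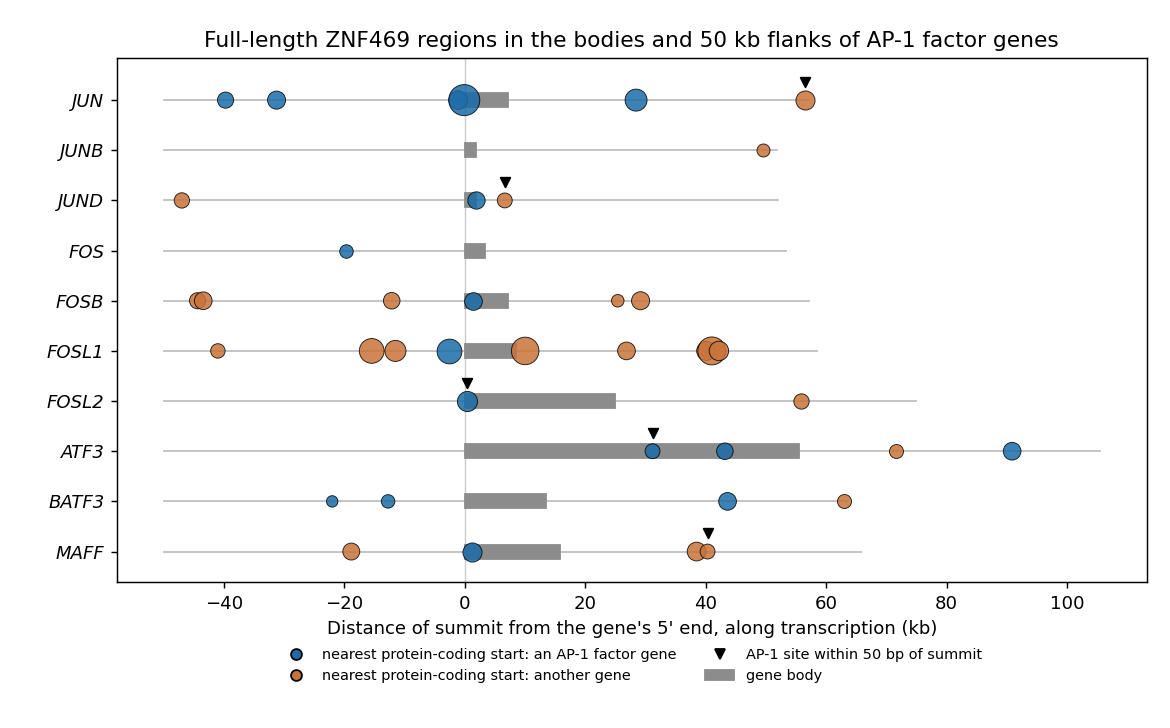
Each row is 1 gene, drawn in its direction of transcription with its body as a grey bar. The x axis gives the distance of each summit from the gene's 5' end in kb, the area of a point follows its pileup, and triangles mark the 5 regions with an AP-1 site within 50 bp of the summit. The largest point is at the start of JUN, and most of those around FOSL1 and FOSB are nearest to the start of another gene.

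JUN encodes c-Jun, the founding subunit of AP-1. Its gene (chromosome 1, 58776845 to 58784048, minus strand) had 6 regions, and no other protein-coding gene lay in its window. The region at the start (58784005 to 58784534) peaked 104 bp upstream of the JUN start, with a pileup of 74 fragments over a local background of 5.14, a fold of 12.2. Pileup is the number of fragments over the summit in the pool of 3 libraries, background is the number the peak caller expected there, and fold is (pileup + 1)/(background + 1). Its pileup stood at percentile 99.6 of all full-length regions and at rank 19 of the 5502 protein-coding genes with a promoter region. The second promoter region (58785067 to 58785382) peaked 1096 bp upstream, in an exon of the long noncoding RNA gene LINC01135, with a pileup of 27 (17.8 to 39.3) and a background of 4.83. The limits of the 2 pileups did not overlap.

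The summit sequence of the JUN promoter region is shown with that of FOSB, another member promoter, because neither held an AP-1 site near the summit and both held a CCAAT box there. Both are plus strand, and capitals mark the CCAAT box (or ATTGG, its reverse complement) and, in JUN, TGATGTCA. The last is the reverse complement of TGACATCA, a variant of the AP-1 site long known from the JUN promoter. No other region at a member's promoter held a CCAAT box within 50 bp of its summit, and 27.7% of all promoter regions did. The CCAAT box was added to the search after the data had been seen.

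JUN, promoter (chr1:58784102-58784202): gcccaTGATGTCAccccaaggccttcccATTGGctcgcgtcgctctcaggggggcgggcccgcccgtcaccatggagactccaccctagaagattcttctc
FOSB, promoter (chr19:45469341-45469441): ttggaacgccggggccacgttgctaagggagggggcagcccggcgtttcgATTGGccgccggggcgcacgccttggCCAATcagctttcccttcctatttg

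TGATGTCA lay 42 bp from the JUN summit, the CCAAT box 20 bp from it and the nearer GC box (GGGCGG) 3 bp from it. TGACATCA was found on either strand at 0.884% of all full-length summits and in 0.408% of the offset windows, so a match is infrequent in both. The other JUN regions had pileups of 20 to 37. The highest of them (58754987 to 58755920), 28.4 kb downstream of the start in a long noncoding RNA intron, had 37 fragments (26.1 to 51.0) over 2.98. Regions 31.3 and 39.7 kb upstream had 25 and 20 fragments and lay in an exon and an intron of LINC01135. The region with the AP-1 site at its summit was 56.5 kb downstream of the start (58727373 to 58727862), with a pileup of 28 (18.6 to 40.5) over 1.54, and the nearest protein-coding start was that of MYSM1, 27.5 kb away. JUN was the nearest protein-coding start for the other 5. A start of the noncoding gene LINC01135 was nearer than that of JUN to the second promoter region and to those 31.3 and 39.7 kb upstream.

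JUNB, which encodes a JUN protein that can hold back c-Jun at some promoters, had 1 region, 49.5 kb downstream of its start. JUNB lies on chromosome 19 (12791486 to 12793315, plus strand) with 8 other protein-coding genes in its window. The region (12840253 to 12841046) had a pileup of 13 (6.92 to 22.2) over a background of 1.20. It lay in introns of MAST1 and HOOK2, 2.43 kb from a MAST1 start. The list therefore placed no region close to JUNB.

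JUND, whose product is the more steadily expressed JUN protein, had 3 regions on chromosome 19 (gene at 18279694 to 18281622, minus strand). The strongest (18279584 to 18279805) counted as a promoter region because the gene is only 1.93 kb long. Its summit was 1203 bp inside the nearest start, in the 3' UTR, with a pileup of 23 (14.6 to 34.5) over 2.41. The region with the AP-1 site (18274907 to 18275150) had a pileup of 17 (9.90 to 27.2) over 1.60 and lay in intergenic DNA 5.93 kb downstream of the nearest JUND start and 497 bp from a start of IQCN. The third had 18 fragments, 47.0 kb upstream and 5.51 kb from a start of LSM4.

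FOS encodes c-Fos, the classic immediate early partner of JUN. It had 1 region in its window and no other protein-coding gene there (chromosome 14, 75278826 to 75282230, plus strand). The region (75259003 to 75259475) was 19.7 kb upstream, in a long noncoding RNA intron, with a pileup of 14 (7.65 to 23.5) over 1.42. It held no AP-1 site anywhere along its length. A GC box lay within 50 bp of its summit.

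FOSB encodes a FOS protein known for its long-lived splice form in neurons. Its gene (chromosome 19, 45467995 to 45475179, plus strand) had 6 regions with pileups of 12 to 25. The promoter region (45469268 to 45469542) was 485 bp upstream of an internal start, 1.40 kb into the gene, and had a pileup of 24 (15.4 to 35.7) over 1.69, a fold of 9.30. CCAAT boxes lay 2 and 28 bp from that summit, as shown in the sequence above. The highest pileup, 25 (16.2 to 36.9) over 1.59, was 58 bp from a start of PPM1N (45497039 to 45497272). Of the other 4, those with 20 and 24 fragments were 1 and 177 bp from starts of ERCC1, a DNA repair gene, that with 21 was in an ERCC1 intron 12.2 kb upstream of FOSB, and that with 12 was 117 bp from a start of RTN2. In the region with 21 fragments an AP-1 site lay 53 bp from the summit, just outside the window used. The region 177 bp from an ERCC1 start held an AP-1 site 99 bp from its summit.

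FOSL1 encodes FRA1, a FOS protein without the activation domain of c-Fos that is prominent in migrating and transformed cells. It had 9 regions, the most of any member, with pileups of 16 to 60 (chromosome 11, gene at 65892049 to 65900573, minus strand). Only 1.31% of protein-coding genes had as many regions. The window also holds 10 other protein-coding genes, and FOSL1 was the nearest protein-coding start for 1 of the 9 regions. That one (65903139 to 65903438) peaked 2720 bp upstream, in intergenic DNA, with 47 fragments (34.5 to 62.5) over 4.56, at rank 160 of the 5502 genes. It held no AP-1 site, and CATTCC, the reverse complement of the TEAD motif GGAATG, lay 23 bp from its summit.

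The highest pileup around FOSL1, 60 (45.8 to 77.2) over 3.94, was 145 bp from a start of CFL1, the actin-severing protein cofilin (65859290 to 65859796). A region 106 bp from a start of CCDC85B, 9.82 kb downstream of a FOSL1 start, had 58 (44 to 75) over 8.14. Upstream of FOSL1, AP-1 sites occurred in pairs away from the summits. The region 15.5 kb upstream had 47 fragments and AP-1 sites 130 and 214 bp from its summit, and the region 11.5 kb upstream had 34 fragments and sites 491 and 513 bp from its summit. Their backgrounds, 8.51 and 7.14, were among the highest of the 38, and the fold of the former was 5.05. The region 41.0 kb upstream, with 16 fragments, had a site 86 bp from its summit. FOSL1 was the nearest protein-coding start for none of these upstream regions. Those 15.5 and 11.5 kb upstream were 2.31 and 6.26 kb from a start of C11orf68. That 41.0 kb upstream was 3.89 kb from a start of TSGA10IP.

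FOSL2 encodes FRA2, a FOS protein linked to fibrosis in several organs. It had 2 regions (chromosome 2, gene at 28392448 to 28417317, plus strand). The promoter region (28392726 to 28392919) peaked 19 bp inside an annotated start, 0.373 kb into the gene, with a pileup of 31 (21.1 to 44) over 4.93, a fold of 5.39. Its summit was in an annotated coding exon of FOSL2. Its AP-1 site fell in the 5' UTR of FOSL2. Both also lay in an intron of the antisense gene FOSL2-AS1, and CUT&RUN reads cannot be assigned to either strand's gene. The other region had 18 fragments and was 8.79 kb from a start of PLB1.

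**Figure D2:**
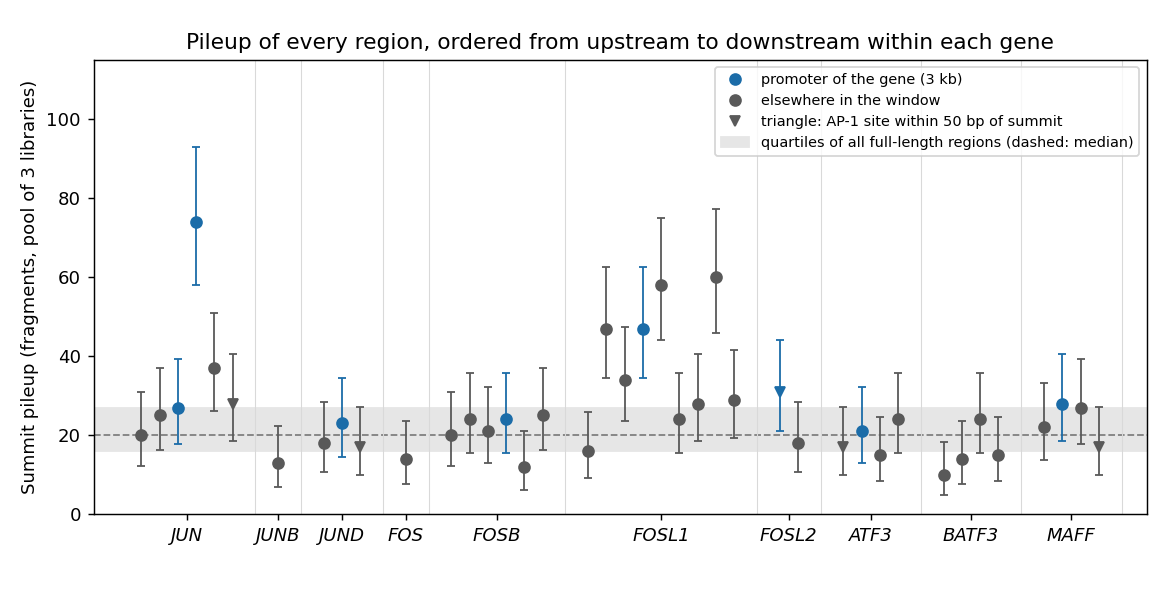
Points are the summit pileup in fragments of every region, ordered from upstream to downstream within each gene, with exact 95% Poisson limits that cover counting error only; regions shared by ATF3 and BATF3 are drawn for both. The dashed line and grey band are the median (20) and quartiles (16 and 27) of all 19108 full-length regions. The JUN promoter stands highest at 74, and the regions around FOSL1 include the next highest values.

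ATF3, a stress-induced bZIP protein that pairs with JUN proteins, and BATF3, which lacks an activation domain and is known from dendritic cell development, are neighbours on chromosome 1. ATF3 runs from 212565334 to 212620777 on the plus strand and BATF3 from 212686417 to 212699840 on the minus strand, 65.6 kb apart. Each had 4 regions, and 2 between the genes were counted for both. The ATF3 promoter region (212608191 to 212608763) was 159 bp upstream of an internal start, 43.2 kb into the gene, with a pileup of 21 (13.0 to 32.1) over 1.98. A GC box and no AP-1 site lay at its summit. The region with the AP-1 site (212595870 to 212596599) was in an ATF3 intron, 12.2 kb upstream of that start, with a pileup of 17 (9.90 to 27.2) over 1.88. ATF3 was the only member with 2 regions inside its own body.

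Of the 2 shared regions, the stronger (212656061 to 212656450) had a pileup of 24 (15.4 to 35.7) over 1.36, a fold of 10.6. It lay in an intron of LINC02773, 31.3 kb downstream of a BATF3 start, and its AP-1 site was 56 bp from the summit. The other had 15 fragments. Upstream of BATF3, regions at 12.75 and 22.03 kb had pileups of 14 (7.65 to 23.5) and 10 (4.80 to 18.4). The last had the lowest pileup and the lowest −log10 p-value (8.14) of the 38 regions. BATF3 thus had regions on both sides and none at its promoter.

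MAFF encodes a small MAF protein, which has a bZIP domain and no activation domain. It had 4 regions (chromosome 22, gene at 38200767 to 38216507, plus strand). The promoter region (38201646 to 38202158) peaked 65 bp upstream of an internal start, 1.10 kb into the gene, with a pileup of 28 (18.6 to 40.5) over 1.81, a fold of 10.3. A GC box lay at its summit. It also held TGACGTCA, the cAMP response element to which ATF and CREB proteins bind, 76 bp from the summit and therefore outside the summit window. The site is shown as the 1 match to that element in the 38 regions, in capitals within 30 bases of the MAFF 5' UTR, plus strand of hg38.

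MAFF, promoter (chr22:38201929-38201958): ggccgggtcggTGACGTCAccgcatgactg

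The MAFF region with an AP-1 site under its summit (38240878 to 38241196) had a pileup of 17 (9.90 to 27.2) over 1.94. It was 27.5 kb downstream of the nearest MAFF start, in an intron of TMEM184B and 1.56 kb from a start of that gene. Of the remaining regions, that with 27 fragments was 257 bp from a start of TMEM184B and that with 22 was 38 bp from a start of PLA2G6.

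Set side by side, the strongest promoter pileups were 74 for JUN, 47 for FOSL1, 31 for FOSL2, 28 for MAFF, 24 for FOSB, 23 for JUND and 21 for ATF3. The limits of JUN overlapped those of FOSL1 and lay above those of the other 5. From FOSL2 to ATF3 all limits overlapped, so that no order can be given among these. Among the 5502 protein-coding genes with a promoter region, FOSL2 was at rank 918, MAFF at 1288, FOSB at 1969, JUND at 2163 and ATF3 at 2674.

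The 38 regions had pileups of 10 to 74, with a median of 24 and quartiles at 17.2 and 28, compared with a median of 20 over the whole list. The median background was 1.93 fragments against 1.82, and the median fold was 6.98 against 7.36. Some protein-coding promoter was within 3 kb for 23 of the 38 regions (60.5%, exact binomial 95% interval 43.4% to 76.0%) and for 30.3% of all full-length regions. The windows were placed at protein-coding genes, whereas the full list includes regions far from genes. The share over windows of all protein-coding genes is not given here, so the difference cannot be read as particular to AP-1 factor genes. In 16 of the 38 the nearest protein-coding start was that of an AP-1 factor gene, and in 22 it belonged to another gene. Pileup was similar in both sets, with medians of 24 and 23. When the starts of all annotated genes were used, noncoding genes included, an AP-1 factor gene was nearest for 11 of the 38.

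**Figure D3:**
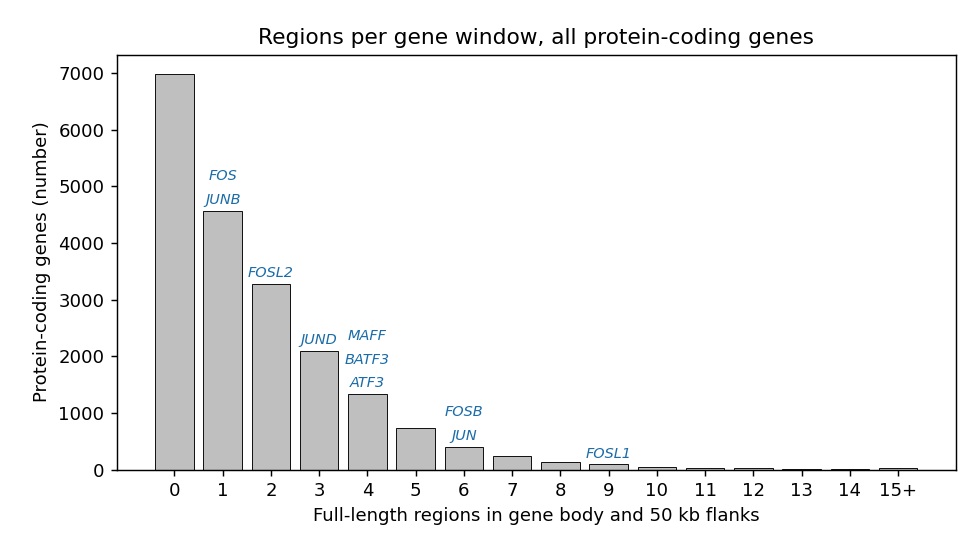
Bars give the number of protein-coding genes (y axis) by the number of full-length regions in the gene body and its 50 kb flanks (x axis), with genes at 15 or more in the last bar. AP-1 factor genes are written above the bar of their own count and range from 1 region (JUNB and FOS) to 9 (FOSL1).

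The median number of regions per window was 4 for the members and 1 for all protein-coding genes. JUN and FOSB, with 6 each, had a number reached by 5.15% of protein-coding genes. ATF3, BATF3 and MAFF, with 4, had one reached by 15.5%, JUND, with 3, one reached by 25.9%, and FOSL2, with 2, one reached by 42.3%. For JUNB and FOS the 1 region is what 65.1% of genes have at the least. The merged windows spanned 1105 kb, of which 1.54% was covered by regions, compared with 0.287% of all chromosomes. The latter include DNA far from genes, and coverage of the windows of all protein-coding genes is not given here.

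Within the windows, 17 of 190 AP-1 sites (8.95%) were inside a full-length region, against 2.27% of the 462326 sites genome-wide. The genome-wide sites include those far from genes. The share over windows of all protein-coding genes is not given here, so the difference cannot be read as particular to AP-1 factor genes. FOSL1 had 5 of 24 sites inside regions and JUN 4 of 19. FOSB, ATF3 and BATF3 had 2 each, JUND, FOSL2 and MAFF 1 each, and JUNB and FOS none of 19 and 9. The site in a region shared by ATF3 and BATF3 is counted for both genes here and once among the 17. An AP-1 site anywhere along the record was present in 14 of the 38 regions (36.8%, 21.8% to 54.0%) and in 44.1% of all full-length regions.

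The share of summits with an AP-1 site depended on position in the full list, at 11.0% of 5790 regions at protein-coding promoters and 22.9% of 13318 regions elsewhere. In the AP-1 gene windows it was 3 of 23 at promoters (13.0%, exact binomial 95% interval 2.78% to 33.6%) and 2 of 15 elsewhere (13.3%, 1.66% to 40.5%). Both intervals include the share of the full list, and a difference was not detectable with so few regions. The 5 regions with the site had a median pileup of 17 and the 33 without it 24, whereas over the whole list the median was 20 with the site and 20 without it.

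**Figure D4:**
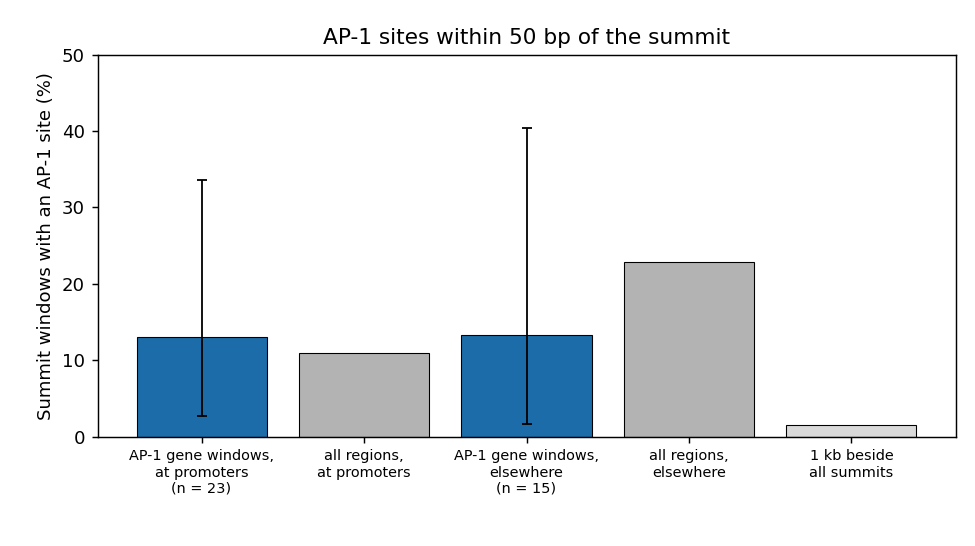
Bars give the percentage of summit windows (50 bp on either side) that held an AP-1 site, for regions in the AP-1 gene windows (blue, with exact binomial 95% intervals), for all full-length regions (grey) and for windows 1 kb beside all summits (light grey). The blue intervals, 2.78% to 33.6% at promoters and 1.66% to 40.5% elsewhere, span the grey bars beside them.

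Other motifs were searched in the same summit windows on both strands. The GC box GGGCGG was at 13 summits, 12 of them at a protein-coding promoter (of 23), where 27.1% of all promoter regions held it. CCAAT was at 10 summits, 8 of them at a promoter, where 27.7% of all promoter regions held it. The TEAD motif was at 3 summits (7.89%, against 11.7% of the list). All 3 were among the 23 at promoters, where 7.82% of all promoter regions held it. None was among the 15 elsewhere, against 13.4% of all regions elsewhere. The ETS motif CCGGAAG was at 1 (2.63%, against 1.41% of the list), in the second JUN promoter region, and 3.52% of all promoter regions held it. The CArG box, to which SRF binds, was at 1, in the CFL1 region near FOSL1 (2.63%, against 0.953% of the list and 0.967% of all promoter regions). The RUNX motif TGTGGT was at none, against 9.45% of the list and 5.73% of all promoter regions. TGACGTCA was at none, against 0.419% of the list and 0.95% of all promoter regions. GC box, CCAAT and TGACATCA were added to the search after the data had been seen.

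In the RefSeq promoter sequences (GRCh38.p14, 250 bases before to 50 after the start), 8 members matched, FOSL1 and BATF3 not. The AP-1 site occurred in that of FOSL2, as in 4.95% of 35116 promoters. TGACGTCA occurred in those of JUND and MAFF (1.85% of promoters) and TGACATCA in those of JUN and ATF3 (2.61%). The JUN match was 67 bases before the start and the MAFF match 54 bases before it, and both lay inside a full-length region. The JUND and ATF3 sites, 200 and 123 bases before the start, were in no full-length region.

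The dZF list had no region near any member. The nearest dZF region was 2.59 Mb from JUNB, 8.07 Mb from JUND and 8.17 Mb from FOSB, between 19.7 and 54.9 Mb from JUN, FOS, FOSL2, ATF3 and BATF3, and there was none on chromosomes 11 and 22. The lowest background in the full-length list, 0.865 fragments, was 1.39 times the 0.625 of the dZF list. All 38 regions exceeded the lowest −log10 p-value of the dZF list (7.63), and 35 did so after pileup and background were divided by that ratio. The 3 that did not were the JUNB region, the weaker BATF3 region and the RTN2 region near FOSB. The lists were filtered on reproducibility, and the full-length list kept records down to a −log10 p-value of 2.155. Passing the lowest dZF value therefore does not show that a region would have been called in the dZF list.

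Of the related genes, 14 of 19 other bZIP factor genes had a full-length region in their windows (73.7%, against 65.1% of all protein-coding genes), and 11 had one at the promoter (57.9%, against 27.5%). BACH1, a repressor that pairs with small MAF proteins, had 13 regions, CREB1 and ATF6 had 6 each and BATF2 had 5. ATF4, a stress-response factor, had a promoter pileup of 44 (32.0 to 59.1), as did NFE2L1. BATF and JDP2, which pair with JUN proteins, had none.

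Among genes that act on AP-1, kinases of the MAP kinase cascades and SRF with its partners, 14 of 15 had a region (93.3%, against 65.1% of all protein-coding genes) and 9 had one at the promoter (60%, against 27.5%). SRF, which binds the CArG box and activates FOS, had a promoter pileup of 64 (49.3 to 81.7). MRTFA, a coactivator of SRF, had 8 regions and ELK3, an ETS partner of SRF, 4. MAPK8, the kinase JNK1 that phosphorylates c-Jun, had 1 region, at its promoter, with 28 fragments (18.6 to 40.5). ELK4 had none.

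Of 13 other immediate early genes, 11 had a region (84.6%, against 65.1% of all protein-coding genes) and 10 had one at the promoter (76.9%, against 27.5%). DUSP1, a MAP kinase phosphatase, and IER3 had 8 each, with promoter pileups of 33 and 39, KLF6 had 6, KLF2 had 5 and EGR3 had 4. EGR1 had 1, at its promoter, with 30 fragments. IER2 and BTG2 had none. AP-1 sites were at 9 of the 43 summits of this list (20.9%, against 19.3% of all full-length summits), 3 of them in the DUSP1 window. None of these genes had a dZF region, and the median number of regions was 3 for the bZIP and immediate early lists and 2 for the kinase and SRF list.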

How the data were processed

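CUT&RUN libraries (6, in 2 groups of 3) were grouped by the construct in their labels. The authors pooled each group, and per the labels and processing notes used Bowtie2 2.3.4.3 and MACS2 2.2.5 on hg38, with an irreproducible discovery rate filter. The deposited fold enrichment is a ratio of pileup to local background, each with 1 added, the deposited −log10 p-value is a Poisson tail, and the deposited summit position is a distance in bp from the record's start. Whole-number pileups were recovered from the first 2 (tolerance 0.0001 in −log10 p, 1 solution for every record; checked on simulated data). Poisson limits and exact binomial intervals (95%) cover counting error only. Library totals were not analysed here, and a gene without a region is one that did not pass the authors' threshold.

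The members and all gene lists were chosen with earlier results of these data known. Regions described in full are those at a member's promoter (within 3 kb of an annotated start) and the highest pileup in each window; of the other lists, genes with 4 or more regions or a promoter pileup above 27, the upper quartile, were named, besides some without a region. A shared region counts once. With 1 list per group, values are described without a test. Python 3.11.15, pysam 0.24.0, pandas 2.3.3, numpy 2.4.6, scipy 1.17.1 and matplotlib 3.10.9 were used. Alternatives were a stricter threshold, other flanks, other promoter and summit windows and other start sets.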

Additional observations from a re-analysis of the deposited data

How the results depend on the processing

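Of 75 alternatives over 10 results, 45 left the value within 1.5 times that reported (or, for the median pileup, within its limits) and 30 did not. The upper 50% of records by fold left 15 regions in the windows, 1 with an AP-1 site at its summit and 7 nearest to a member's start. The upper 25% by fold left 6 members with a region, 10 regions, 3 members with a promoter region, 1 AP-1 site and 5 regions nearest to a member's start, with 9 bZIP, 6 kinase and SRF and 6 immediate early genes. The upper 25% by pileup left 4 members, 14 regions, 4 promoter members, 2 AP-1 sites and 6 nearest regions, with 8, 4 and 5 genes of these lists, and a median background of 4.33. Flanks of 10 kb left 11 regions, 3 AP-1 sites and 9 nearest regions. Gene bodies alone left 6 members, 7 regions, 2 AP-1 sites, 7 nearest regions and 5 immediate early genes. These settings keep fewer records or less sequence by construction, for all genes alike, and shares over all genes are not given for them. AP-1 sites were counted in 8 regions with 100 bp around the summit and in 14 with the whole record. Adding TGACATCA, an alternative chosen after the data were seen, gave 6.

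No paired analysis was possible because each group is 1 pooled list in which no replicate has a value of its own. No replicate was left out either. Depth limits the weak regions most, since a pileup of 10 has limits of 4.80 to 18.4 before any difference between libraries.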
